A study of Mus musculus with 4 samples.

Results

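The Krüppel-like factors (Klf) are transcription factors that bind GC-rich and CACCC-type DNA elements through C-terminal zinc fingers and differ in the N-terminal part that recruits activators or repressors. The 10 genes described here, Klf2, Klf3, Klf4, Klf5, Klf6, Klf9, Klf10, Klf11, Klf13 and Klf16, were taken by symbol from the 55401 genes of the deposited count table, where each matched 1 gene, and all 10 passed the filter on low counts. They were picked as short Klf genes of stem cells and immediate responses, and are not the whole family. They were measured in 4-thiouridine (4sU) labelled RNA, which is enriched for RNA made while the nucleoside is present. The cells were 129/Ola mouse embryonic stem cells in which SNRNP70, a protein subunit of the U1 snRNP that recognises 5′ splice sites, carries an auxin degron tag, and all were grown in serum with leukemia inhibitory factor (LIF). One group received the auxin IAA for 5 h (SNRNP70 degraded, 2 libraries), and the other was the same degron line at 0 h, which the labels call wild type (2 libraries). The series asked how loss of SNRNP70 compares with loss of ZFP207 in U1 function, and only the SNRNP70 comparison is analysed here. Whether the line is a single clone, how long labelling lasted and whether an RNA spike-in was added are not given in the sources used here. Each level is therefore relative to the other RNAs of its library. The degron acts on the protein, so RNA counts do not check the depletion.

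In embryonic stem cells Klf2, Klf4 and Klf5 belong to the self-renewal network, with Klf4 downstream of LIF and STAT3. Klf3 is a repressor that binds the co-repressor CtBP. Klf9, Klf10, Klf11, Klf13 and Klf16 share a domain that recruits the Sin3 co-repressor, and Klf10 and Klf11 are early response genes of TGF-beta signalling. Klf6 is a widely made activator, and in many cells Klf2, Klf4, Klf6 and Klf10 respond quickly to stimuli.

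The libraries had totals of 15645894 and 10349277 counts at 5 h and 17752887 and 7174772 counts at 0 h. Log levels correlated across genes at r = 0.965 between the 5 h replicates, at 0.969 between the 0 h replicates and at 0.906 to 0.931 between groups. The 10 stem cell markers looked at were all present, with summed levels of 3643 to 3691 CPM (counts scaled to the TMM-normalised library size) at 5 h and 3256 to 3358 CPM at 0 h. The sum over 9 fibroblast feeder markers was 17.4 to 20.7 CPM at 5 h and 15.2 to 15.5 CPM at 0 h, and Col3a1, Dcn, Lum and Postn had no count in any library. The sum over 13 differentiation markers was 36.9 to 41.8 CPM at 5 h and 32.6 to 36.8 CPM at 0 h, with Cdx2 at 0 throughout. The part of these other cell types in the results below was not tested, and in such bulk samples fewer cells of a type and less RNA per cell cannot be told apart.

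After 5 h of auxin, 7 of the 10 Klf genes were higher in labelled RNA, 1 was lower and 2 did not pass the test. Klf2, Klf4, Klf5, Klf10, Klf11, Klf13 and Klf16 rose by 1.36-fold to 2.004-fold, and Klf3 fell to 0.620 of its 0 h level (edgeR quasi-likelihood, Benjamini-Hochberg threshold 0.05). Klf6 and Klf9 did not pass. Among all 17344 genes tested 22.0% were called higher and 21.2% lower, 43.2% in all, against 8 of the 10 Klf genes. The 10 genes stood high by 0 h CPM, from percentile 72.0 (Klf11) to 99.2 (Klf5) of the genes tested. A change is easier to call in genes with many counts, and the share called among genes of like level was not computed. The 10 were also picked as short genes. Short genes were called higher more often, at 32.1% of those under 5 kb and 9.29% of those over 100 kb. The part of this choice in the share of Klf genes called higher was not tested. The median log2 fold change was 0.65 over the 10 Klf genes and -0.02 over all genes tested. These directions are relative to the median gene under TMM scaling, and with scaling to the mitochondrially encoded genes no Klf gene passed as higher (0 also at an unadjusted p under 0.05) and Klf3, Klf5, Klf6 and Klf9 passed as lower. That scaling moved the median of all genes to -0.86 and scaling to library totals moved it to -0.28. The share of counts from the mitochondrial genome was 6.03% and 7.17% at 5 h and 4.41% and 4.34% at 0 h, and the part of this in the results was not tested.

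In 8 Klf genes both 5 h libraries lay above both 0 h libraries, a pattern held by 36.0% of all genes tested, and in Klf3 and Klf9 both lay below, as for 37.5% of all genes. Summed over the 10 genes the level was 2785 and 2662 CPM at 5 h, against 2084 and 2009 CPM at 0 h. CPM is not divided by transcript length, so levels are not compared between genes, and the percentiles above rank CPM only. The series text calls the replicates independent, but separate cultures are not stated, and the p-values may then measure technical spread only.

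**Figure D1:**
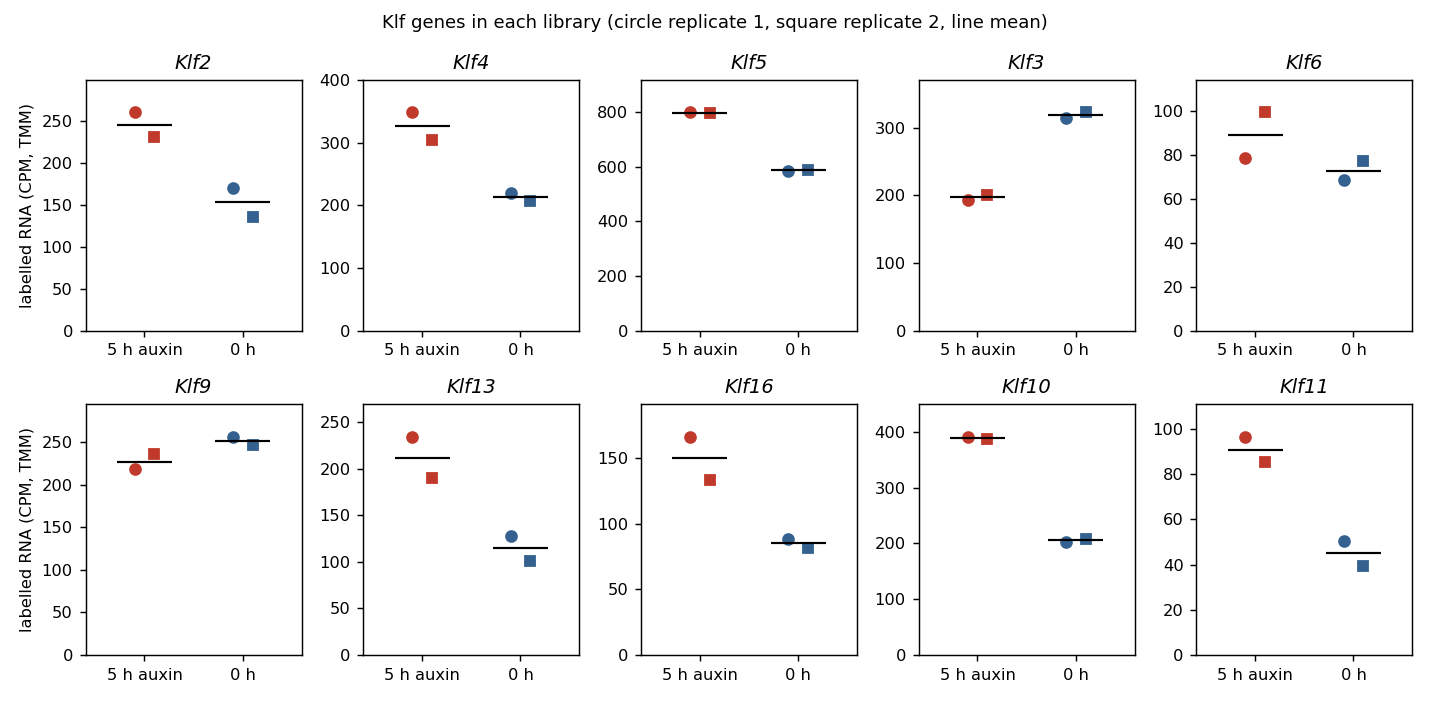
Labelled RNA of the 10 Klf genes in every library, in TMM-normalised CPM on axes that start at 0, with 5 h auxin (red) left of 0 h (blue), circles for replicate 1, squares for replicate 2 and a line at each mean. The groups do not overlap in any panel, with 5 h above 0 h in 8 panels and below it in those of Klf3 and Klf9.

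For 7 of the 10 genes the RefSeq promoter table (GRCm38.p6, which corresponds to the mm10 build of the submitters' processing notes) held the sequence, and Klf5, Klf10 and Klf16 are named only. The 250 bases before the annotated start are shown for 5 of them, because they set genes that rose (Klf2, Klf4, Klf11) beside the gene that fell (Klf3) and a gene that did not pass (Klf9). Capitals mark matches on either strand to CCNCNCCC, a core common to the GC-rich and CACCC-type elements that Klf proteins bind. The windows are chr8:72318812-72319061 (plus strand) for Klf2, chr4:55532476-55532725 (minus) for Klf4, chr12:24651121-24651370 (plus) for Klf11, chr5:64803271-64803520 (plus) for Klf3 and chr19:23140976-23141225 (plus) for Klf9, each read 5′ to 3′ on the gene's strand.
Klf2: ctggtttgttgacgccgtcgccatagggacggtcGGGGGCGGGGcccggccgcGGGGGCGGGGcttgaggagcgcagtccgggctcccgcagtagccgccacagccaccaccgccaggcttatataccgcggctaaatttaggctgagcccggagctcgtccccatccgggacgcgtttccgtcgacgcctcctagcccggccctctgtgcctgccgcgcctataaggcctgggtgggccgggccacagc
Klf4: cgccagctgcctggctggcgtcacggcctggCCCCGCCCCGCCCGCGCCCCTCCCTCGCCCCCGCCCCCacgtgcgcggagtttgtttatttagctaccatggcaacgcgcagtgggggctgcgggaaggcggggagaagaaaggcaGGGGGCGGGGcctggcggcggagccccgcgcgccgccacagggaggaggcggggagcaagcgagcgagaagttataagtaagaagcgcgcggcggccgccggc
Klf11: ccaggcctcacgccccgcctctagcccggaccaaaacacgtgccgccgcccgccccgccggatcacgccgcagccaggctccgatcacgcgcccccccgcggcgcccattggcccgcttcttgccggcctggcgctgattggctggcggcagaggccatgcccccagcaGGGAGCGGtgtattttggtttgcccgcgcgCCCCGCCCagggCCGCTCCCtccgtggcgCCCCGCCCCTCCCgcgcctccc
Klf3: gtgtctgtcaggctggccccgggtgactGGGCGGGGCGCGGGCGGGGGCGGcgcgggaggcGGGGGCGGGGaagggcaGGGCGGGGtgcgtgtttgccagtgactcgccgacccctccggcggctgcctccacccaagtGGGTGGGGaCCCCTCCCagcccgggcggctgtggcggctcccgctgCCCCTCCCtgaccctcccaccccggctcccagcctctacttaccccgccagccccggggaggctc
Klf9: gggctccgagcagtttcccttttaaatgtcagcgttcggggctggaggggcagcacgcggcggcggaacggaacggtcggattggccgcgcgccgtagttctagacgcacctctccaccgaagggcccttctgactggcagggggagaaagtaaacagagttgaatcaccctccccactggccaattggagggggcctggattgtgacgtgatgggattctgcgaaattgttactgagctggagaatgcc

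The motif CCNCNCCC matched 4 times in the Klf2 window, 9 times in that of Klf4, 5 times in that of Klf11, 10 times in that of Klf3 and not at all in that of Klf9. Klf13 and Klf6, not shown, had 5 and 2 matches. Thus 6 of 7 windows held the motif, against 45.9% of the 32851 promoter windows of the table, and matches may overlap each other. Many lay on GC boxes (GGGCGG on either strand), as did 4 of 4 matches in Klf2, 7 of 9 in Klf4, 3 of 5 in Klf11 and 7 of 10 in Klf3. The GC box was in 6 of 7 windows and in 32.7% of all windows. Among the 7 windows Klf3 had the most matches and Klf9 the fewest, and no relation to the changes was tested.

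The windows were GC-rich, at 74.0% for Klf4, 71.2% for Klf2, 76.8% for Klf11, 78.4% for Klf3, 71.6% for Klf13, 64.8% for Klf6 and 59.6% for Klf9, against a median of 52.4% over all windows. None of the 7 held TATAAA, which 12.4% of all windows hold, or the full cyclic AMP response element TGACGTCA (1.55% of all). The CArG box, the site of serum response factor, was in none of the 7 and in 1.47% of all windows. The AP-1 motif TGANTCA and the STAT motif TTCNNNGAA were each in the Klf9 window alone among the 7, and in 6.75% and 7.02% of all windows. CCAAT stood in 4 of 7 windows, those of Klf6, Klf9, Klf11 and Klf13, and in 33.8% of all windows. Both strands were searched for each motif, and a match describes letters only.

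The 3 Klf genes of the self-renewal network, Klf2, Klf4 and Klf5, rose with TMM scaling, and each had a negative value with mitochondrial scaling. Klf2, which encodes an activator tied to the ground state of mouse stem cells, had 260 and 230 CPM at 5 h, against 170 and 136 CPM at 0 h. The lowest 5 h library thus stood clear of the highest 0 h library. Its log2 fold change was 0.68 ± 0.12 (SE, n = 2 each; 95% interval 0.41 to 0.94; edgeR, Benjamini-Hochberg adjusted p = 0.00115). Klf2 spans 2.59 kb on chromosome 8 (mm10, 72319062 to 72321654).

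Klf4, a reprogramming factor that works with Oct4 and Sox2, had 348 and 305 CPM at 5 h, against 219 and 207 CPM at 0 h. The spread between replicates was 30.5 CPM (SD) at 5 h and 8.15 CPM at 0 h, both under the difference of the means. Its log2 fold change was 0.61 ± 0.10 (95% interval 0.40 to 0.83; edgeR, Benjamini-Hochberg adjusted p = 0.000580). Klf4 lies on chromosome 4 from 55527137 to 55532475, a span of 5.34 kb. Klf5, an activator needed for self-renewal and for the early embryo, had 798 and 796 CPM at 5 h, against 585 and 589 CPM at 0 h. Its replicates were the closest of the 10 genes in both groups (SD 1.5 CPM at 5 h and 2.63 CPM at 0 h). The change was the smallest of the 7 called higher, at 0.44 ± 0.08 (95% interval 0.26 to 0.62; edgeR, Benjamini-Hochberg adjusted p = 0.00133). With library totals Klf5 was at 0.17 and did not pass (adjusted p = 0.0929 by edgeR), and with mitochondrial scaling it was at -0.41 and passed as lower (adjusted p = 0.0319). Klf5 spans 14.7 kb on chromosome 14, from 99298691 to 99313412.

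Klf3, the CtBP-binding repressor, was the only one of the 10 called lower. It had 194 and 201 CPM at 5 h, against 314 and 323 CPM at 0 h, and the replicates of each group differed by far less than the groups did. The log2 fold change was -0.69 ± 0.09 (95% interval -0.88 to -0.50; edgeR, Benjamini-Hochberg adjusted p = 0.000164). It was lower and past the threshold in the 14 alternatives run, 4 of which leave a group with 1 library, with values from -1.54 (mitochondrial scaling) to -0.66. Klf3 lies on chromosome 5 from 64803521 to 64832901 (29.4 kb). Klf8 and Klf12, the other CtBP-binding members of the family, were chosen for mention after their values were seen. Klf8 was at -0.34 ± 0.13 (adjusted p = 0.0517) and Klf12 at -0.35 ± 0.15 (adjusted p = 0.0779) in the edgeR fit, and neither passed. Both were near the threshold, with 95% intervals of -0.61 to -0.06 and -0.67 to -0.03. Their unadjusted p by edgeR was 0.0225 and 0.0371. The co-repressor genes Ctbp1 and Ctbp2, chosen in the same way, did not pass either, at -0.05 ± 0.17 and 0.07 ± 0.11.

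Klf10 and Klf11, the TGF-beta inducible pair, had the 2 highest log2 fold changes of the 10. Klf10 had 391 and 387 CPM at 5 h, against 203 and 208 CPM at 0 h, so its replicates nearly coincided in both groups. Its log2 fold change was 0.92 ± 0.09 (95% interval 0.73 to 1.11), and its adjusted p of 3.44e-05 (edgeR, Benjamini-Hochberg) was the lowest of the 10. Klf11 had 96.5 and 85.2 CPM at 5 h, against 50.5 and 39.5 CPM at 0 h. The change of Klf11 was 1.00 ± 0.14 (95% interval 0.69 to 1.32; edgeR, Benjamini-Hochberg adjusted p = 0.000295), the largest of the 10 under TMM, and its interval contains the value of Klf10. With mitochondrial scaling Klf10 was at 0.08 and Klf11 at 0.17, and neither passed. Klf10 lies on chromosome 15 (38291464 to 38300711, 9.25 kb) and Klf11 on chromosome 12 (24651371 to 24662782, 11.4 kb).

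Klf13 and Klf16, GC-box factors of the Sin3-recruiting class, also rose. Klf13 had 234 and 189 CPM at 5 h, against 128 and 101 CPM at 0 h, and in both groups replicate 1 was the higher. Its log2 fold change was 0.88 ± 0.14 (95% interval 0.58 to 1.18; edgeR, Benjamini-Hochberg adjusted p = 0.000509). Klf16 had 166 and 134 CPM at 5 h, against 88.6 and 81.7 CPM at 0 h, a change of 0.82 ± 0.12 (95% interval 0.54 to 1.09; edgeR, Benjamini-Hochberg adjusted p = 0.000443). Mitochondrial scaling put Klf13 at 0.05 and Klf16 at -0.01, and neither passed. Klf13 lies on chromosome 7 (63886351 to 63938915, 52.6 kb) and Klf16 on chromosome 10 (80567121 to 80577296, 10.2 kb).

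Klf9, a hormone-responsive member of the same class, did not pass. It had 218 and 236 CPM at 5 h, against 256 and 246 CPM at 0 h, and the gap between the groups was about as wide as that between the replicates. Its log2 fold change was -0.15 ± 0.09 with a 95% interval of -0.35 to 0.05 (edgeR, Benjamini-Hochberg adjusted p = 0.216). The interval leaves out the values of the other 4 genes of the class, but the difference between genes was not itself tested. Klf9 passed as lower with library totals (-0.42, adjusted p = 0.00356 by edgeR) and with mitochondrial scaling (-0.999). Klf9 spans 26.9 kb on chromosome 19, from 23141226 to 23168129.

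Klf6, an activator that responds to injury in many tissues, had 78.6 and 99.3 CPM at 5 h, against 68.6 and 77.1 CPM at 0 h. The lower 5 h library was only just above the higher 0 h library. The log2 fold change was 0.29 ± 0.13 (95% interval -0.01 to 0.58), which did not pass (edgeR, Benjamini-Hochberg adjusted p = 0.107). This call changed with the fit. Without 5 h replicate 1 the value was 0.46 and passed (adjusted p = 0.00111 by edgeR), and with the replicate number as a block it was 0.28 and passed (adjusted p = 0.0454), each of which made 8 of the 10 genes higher. Over the other libraries left out in turn it lay between 0.13 and 0.37 and did not pass. Mitochondrial scaling gave -0.57 and a call as lower (adjusted p = 0.0154). Klf6 lies on chromosome 13 (5861489 to 5870393, 8.91 kb).

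Klf2, Klf4, Klf11, Klf13 and Klf16 were higher in replicate 1 than in replicate 2 of both groups, by 0.18 to 0.32 (log2) at 5 h and by 0.08 to 0.35 at 0 h. Klf3 and Klf6 were lower in replicate 1 of both groups. With 1 library left out, 1 group holds a single library that is assumed to vary like the other group, so the calls of such fits say little. The values are given for their range: leaving out each library in turn gave log2 fold changes of 0.53 to 0.86 for Klf2, 0.52 to 0.72 for Klf4, 0.44 to 0.46 for Klf5, 0.91 to 0.95 for Klf10, 0.85 to 1.21 for Klf11, 0.72 to 1.07 for Klf13 and 0.65 to 0.98 for Klf16. Among these 7 genes the interval of Klf5 lies below those of Klf10 and Klf11, and every other pair of intervals overlaps at least in part. The differences between genes were not tested. RefSeq places other genes over some of the 10, and strand use in counting is not given in the sources used here. Gm38457 and Gm31684 over Klf3 were not matched in the count table. Mir1192, in Klf9, had 49 and 35 counts at 5 h and 35 and 14 at 0 h. Gm35248 over Klf10 and Gm27252 and E030018B13Rik over Klf13 had 7 counts or fewer in every library.

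**Figure D2:**
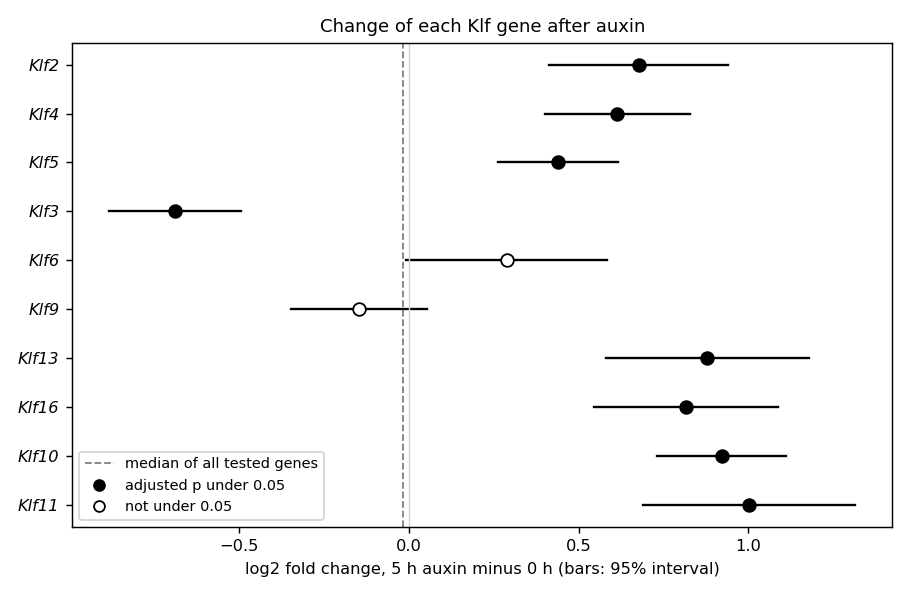
Log2 fold change of each Klf gene (x axis, 5 h minus 0 h, TMM) with its 95% interval, filled where the Benjamini-Hochberg adjusted p of edgeR's quasi-likelihood test is under 0.05. The intervals of 7 genes lie above 0 and that of Klf3 below it, while those of Klf6 and Klf9 include 0. With mitochondrial scaling the values of Klf2, Klf4, Klf5, Klf6 and Klf16 turn negative, and those of Klf3 and Klf9 stay negative.

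The scaling set how many of the 10 counted as higher. With library totals 6 were called higher and 2 lower, with Klf5 lost and Klf9 gained as lower. With mitochondrial scaling 0 were called higher and 4 lower. A change of scaling moves all genes by nearly the same amount, so it leaves their order as it is.

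**Figure D3:**
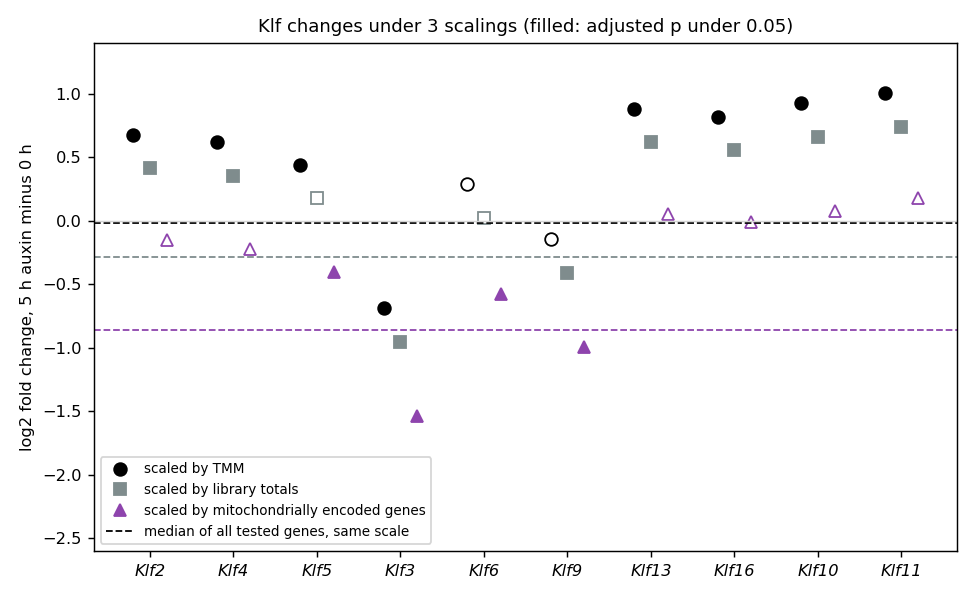
Log2 fold change of each Klf gene (y axis, 5 h minus 0 h) under TMM (circles), library totals (squares) and the mitochondrially encoded genes (triangles), filled where the adjusted p is under 0.05, with dashed lines at the median of all tested genes on the same scale. Every gene drops by nearly the same amount from scale to scale, and Klf2, Klf4, Klf5, Klf6 and Klf16 change sign with mitochondrial scaling.

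The rest of the family, 16 Klf and Sp genes, was measured alongside. Klf14, Sp7, Sp8 and Sp9 did not pass the filter, with 13 counts or fewer in any library, and Klf1, Klf17 and Sp5 were near the floor with means under 2 CPM. Of the 12 tested, 3 rose (Sp1, Sp3 and Sp6), 2 fell (Klf7 and Klf15) and 7 did not pass. This split is near that of all genes tested, with 22.0% higher and 21.2% lower. The median log2 fold change of the 12 was 0.21. Over the 9 of them with over 5 CPM in both groups the median was -0.32, so its sign rests on the genes near the floor. Sp6, known from epithelia and teeth, had 53.3 and 55.9 CPM at 5 h, against 21.1 and 18.3 CPM at 0 h, a change of 1.46 ± 0.14 (edgeR, Benjamini-Hochberg adjusted p = 4.67e-05). Klf15, a metabolic regulator, had 8.96 and 7.98 CPM at 5 h, against 21.4 and 24.9 CPM at 0 h (-1.44 ± 0.20, adjusted p = 0.000323). Klf7, known from neurons, had 14.1 and 14.9 CPM at 5 h, against 28.4 and 25.7 CPM at 0 h (-0.91 ± 0.17, adjusted p = 0.00183). The ubiquitous GC-box factors Sp1 and Sp3, named after their values were seen, had changes of 0.36 ± 0.08 and 0.41 ± 0.10. These counts changed when single libraries were left out, as did those of all genes tested, and calls with 1 library in a group say little. Library totals gave 1 higher and 5 lower, limma-voom gave 3 higher and 4 lower, and mitochondrial scaling gave 1 higher and 8 lower.

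Gene span was set beside these changes because U1 is known to protect long genes from early cleavage and polyadenylation. The 10 genes span 2.59 to 52.6 kb. Klf2 was compared with tested genes under 5 kb, whose median log2 fold change was 0.49, and stood at their percentile 60.03. In the class of 5 to 20 kb (4637 genes, median -0.01), Klf6 stood at percentile 63.9, Klf5 at 71.0, Klf4 at 79.6, Klf16 at 87.5, Klf10 at 90.5 and Klf11 at 92.3. Among genes of 20 to 50 kb (median -0.21) Klf3 was at percentile 29.2 and Klf9 at 52.8. Klf13, the longest of the 10, was at percentile 96.1 of the genes of 50 to 100 kb, whose median was -0.28. These classes had 32.1%, 24.8%, 18.8% and 16.3% of their genes called higher, from short to long. Called lower were 4.71%, 20.2%, 31.6% and 36.2%, in the same order.

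Across the 10 genes Spearman's rho between span and log2 fold change was -0.16, and across 19 Klf and Sp genes with over 5 CPM in both groups it was -0.61. Over 15033 tested genes with a RefSeq span it was -0.30. Genes are not independent replicates, all share the same 4 libraries, and no p is given. The 10 were picked as short genes, which limits the range of span behind their value. The long family members Klf7, Klf8, Klf12 and, named after its value was seen, Sp4 (-0.32 ± 0.16) had negative values, of which Klf7 alone passed, and among the 10 genes Klf13 departed most from its class median. Among the 9 other family members with over 5 CPM in both groups Sp6 and Klf15 departed further. Klf1 and Klf17, which were near the floor, did so too.

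**Figure D4:**
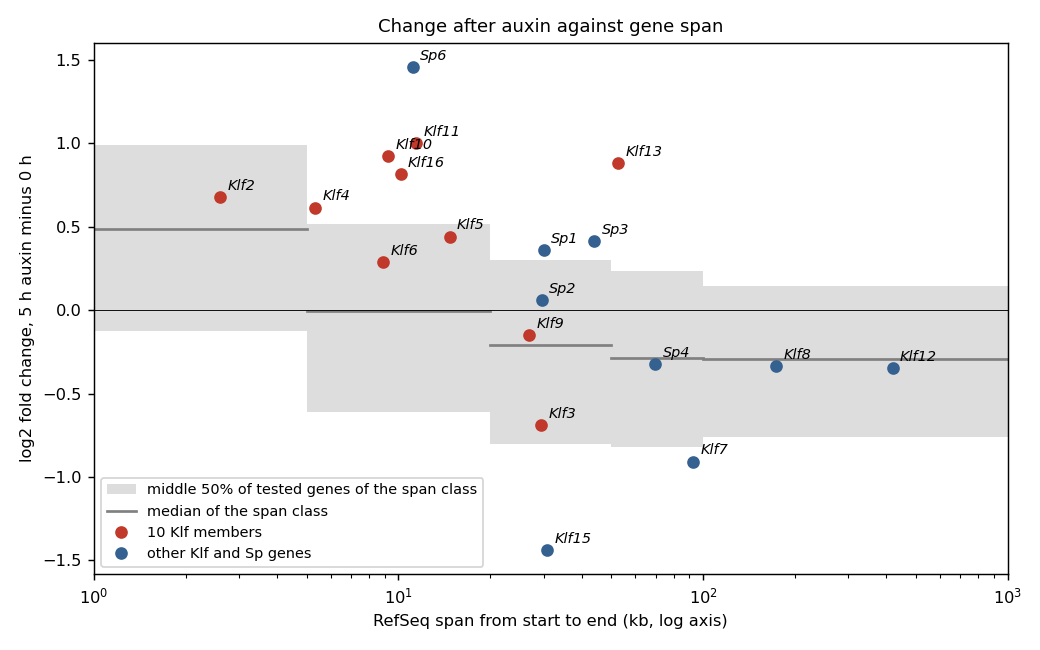
Log2 fold change (y axis, 5 h minus 0 h, TMM) against RefSeq span (x axis, kb, log scale) for the 10 Klf genes (red) and for 9 other Klf and Sp genes with over 5 CPM in both groups (blue), over the median (line) and middle 50% (band) of all tested genes of each span class. Klf4, Klf10, Klf11, Klf13, Klf16, Sp1, Sp3 and Sp6 lie above the bands of their classes. Klf7 and Klf15 lie below theirs, and the other genes, Klf3 among them, lie inside. Of the 10 Klf genes, Klf2, Klf4, Klf5, Klf6 and Klf16 turn negative with mitochondrial scaling, and Klf3 and Klf9 stay negative.

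Genes that work with the Klf factors in self-renewal moved both ways. Of 12 pluripotency partners 5 rose, 4 fell and 3 did not pass, with a median log2 fold change of 0.06. Over all genes tested 22.0% were called higher and 21.2% lower. Sox2 averaged 726 ± 79.5 CPM at 5 h and 399 ± 37.0 CPM at 0 h (SD, n = 2 each), a change of 0.86 ± 0.10 (edgeR, Benjamini-Hochberg adjusted p = 0.000124). Tbx3, which acts beside Klf4 downstream of LIF, averaged 431 ± 10.5 CPM at 5 h and 286 ± 14.0 CPM at 0 h (0.59 with TMM, -0.25 with mitochondrial scaling). Tfcp2l1, a naive-state factor, averaged 717 ± 60.8 CPM at 5 h and 1028 ± 23.3 CPM at 0 h (-0.52 ± 0.09, adjusted p = 0.000923). The counts of the partners changed with a library left out, as did those of all genes tested, and such calls say little. With library totals 2 rose and 6 fell. With mitochondrial scaling 0 rose, 0 also at an unadjusted p under 0.05 by edgeR, and 8 fell.

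Among the 16 regulators of Klf genes and proteins 5 rose, 3 fell and 8 did not pass (median 0.11). This is not far from the 22.0% higher and 21.2% lower of all genes tested. The LIF receptor subunits were the lowest of the 16. Il6st averaged 103 ± 8.30 CPM at 5 h and 249 ± 13.9 CPM at 0 h (-1.27 ± 0.10, edgeR, Benjamini-Hochberg adjusted p = 1.75e-05), and Lifr averaged 130 ± 7.45 CPM at 5 h and 288 ± 21.0 CPM at 0 h (-1.14 ± 0.10, adjusted p = 2.38e-05). Mapk7, the ERK5 kinase known to induce Klf2 and Klf4 in endothelium, averaged 168 ± 20.5 CPM at 5 h and 81.4 ± 6.32 CPM at 0 h (1.04 ± 0.12, adjusted p = 8.37e-05). Stat3 (0.75 ± 0.09) and its feedback inhibitor Socs3 (0.58 ± 0.10), named after their values were seen, were higher like Klf4. Library totals gave 3 higher and 3 lower. Mitochondrial scaling left none of the 16 higher (0 at an unadjusted p under 0.05 by edgeR) and 11 lower. Leaving out a library also changed the counts, as it did for all genes tested, and such calls say little.

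Of 11 cofactors that Klf proteins recruit, 3 rose, 3 fell and 5 did not pass (median -0.05). This is not far from the 22.0% higher and 21.2% lower of all genes tested. With library totals 4 of the cofactors were called lower and 0 higher. On the mitochondrial scale 9 of the cofactors were lower and 0 higher (0 at an unadjusted p under 0.05 by edgeR). The acetyltransferase gene Kat2b averaged 40.1 ± 5.49 CPM at 5 h and 88.3 ± 0.759 CPM at 0 h (-1.14 ± 0.13, edgeR, Benjamini-Hochberg adjusted p = 8.90e-05). Crebbp, which encodes the acetyltransferase CBP, was at 0.48 ± 0.09 (-0.37 with mitochondrial scaling), and Wdr5, a histone methylation adaptor, at -0.52 ± 0.10. Sin3a (0.04 ± 0.09) and Sin3b (-0.08 ± 0.15), the partners of the Klf9 to Klf16 class and named for that role after their values were seen, did not pass. Of 9 TGF-beta signalling genes 3 rose and 0 fell by edgeR, with 0 lower also at an unadjusted p under 0.05 and by DESeq2 and limma-voom (median 0.19). Ski, a repressor of Smad signalling, was at 0.91 ± 0.09, the inhibitory Smad gene Smad7 at 0.43 ± 0.10 and the receptor gene Tgfbr1 at 0.42 ± 0.10, and with mitochondrial scaling the last 2 were at -0.41 and -0.43. Without 5 h replicate 1 the TGF-beta counts were 5 higher and 1 lower. Library totals gave 1 higher, and the mitochondrial scale gave 0 higher and 4 lower (0 and 6 at an unadjusted p under 0.05 by edgeR).

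Immediate early genes, which cells switch on within minutes of a stimulus, mostly rose. Of 19 genes 17 were tested, of which 12 rose, 0 fell and 5 did not pass, with a median log2 fold change of 1.06. None was lower at an unadjusted p under 0.05 by edgeR, and DESeq2 and limma-voom called 0 lower. Jun averaged 11.4 ± 1.29 CPM at 5 h and 1.71 ± 0.628 CPM at 0 h (2.64 ± 0.34, edgeR, Benjamini-Hochberg adjusted p = 0.000191). Ier2 averaged 184 ± 22.3 CPM at 5 h and 72.9 ± 3.97 CPM at 0 h (1.34 ± 0.11), and Myc averaged 267 ± 2.13 CPM at 5 h and 119 ± 7.27 CPM at 0 h (1.16 ± 0.09). Over all genes tested 22.0% were called higher and 21.2% lower with TMM. On the mitochondrial scale 4 of the immediate early genes were higher and 0 lower. Those that rose with TMM, except Myc (5021 bases) and Srf (11430 bases), span under 5 kb. Of all tested genes under 5 kb 32.1% were called higher and 4.71% lower, with a median of 0.49. The part of span in these changes was not tested. Among the Klf genes known as rapid responders, Klf10, Klf2 and Klf4 had smaller log2 fold changes than Jun, Ier2 and Myc, and Klf6 did not pass. Those 3 genes were named for their low adjusted p, which favours large changes. Klf10 (0.92) was above Junb (0.83), Dusp1 (0.80), Srf (0.69) and Btg2 (0.57), also called higher, and below the others called. Klf2 (0.68) and Klf4 (0.61) were above Btg2 alone of the genes called.

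Of 9 tested differentiation markers 1 rose, the neural gene Sox1 (10.6 ± 1.89 CPM at 5 h and 3.73 ± 0.969 CPM at 0 h, 1.46 ± 0.31), and 0 fell by edgeR, 0 also at an unadjusted p under 0.05. DESeq2 and limma-voom called 1 higher and 0 lower as well, and without 0 h replicate 1 there were 2 higher. In 4 alternatives 1 was lower: library totals, counts divided by 4, and each fit that leaves out a 5 h library. On the mitochondrial scale 0 were higher (0 also at an unadjusted p under 0.05 by edgeR) and 2 lower, with Sox1 at 0.62 and not past the threshold. Of 3 tested feeder markers 0 were called in either direction by edgeR, DESeq2 or limma-voom, 0 also at an unadjusted p under 0.05. Thy1 (0.32 ± 0.25) and Col5a1 (0.10 ± 0.32) had the highest levels of the 3. Over all genes tested 22.0% were called higher and 21.2% lower by edgeR.

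The genes with the most similar profiles to Klf2 and Klf4 were sought over the 4 libraries among 10012 protein-coding genes with a mean of at least 5 CPM. Nearest to Klf2 by root mean square distance of centred log2 CPM were Ing1 (0.00744), Prr23a3 (0.0129) and Pcdhga4 (0.0135). Near to Klf4 were Cdk2ap1 (0.00652) and Dtx2 (0.0104). With so many candidates and 4 libraries such close profiles are a description only.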

How the data were processed

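Labelled RNA of 4 libraries was read from 1 deposited table of whole-number values per gene. The tools named, per the submitters' processing notes, are StringTie 2.2.1, HISAT2 2.2.1 and DESeq2 1.42.0, with the mm10 genome. Which of them made the table, its annotation and strand setting are not given in the sources used here. The deposited values were taken as estimated counts from coverage, because in all 4 libraries more genes held the value 3, and also 4, than 2. They were already whole. Genes were filtered with filterByExpr, which kept 17344 of 55401, and fitted in edgeR 4.0.16 (R 4.3.3) with TMM and the robust quasi-likelihood test, 5 h minus 0 h, with Benjamini-Hochberg adjustment over all genes tested and a threshold of 0.05. The SE is the size of the log2 fold change divided by the square root of F, and intervals are 95%. A floor of 3 counts was 0.207 and 0.324 CPM at 5 h and 0.154 and 0.381 CPM at 0 h, covering counting error only. Alternatives used RLE factors, library totals, mitochondrial scaling, other filters, DESeq2 1.42.0, limma-voom (limma 3.58.1), no robust estimation, counts divided by 4, a replicate block and leaving out each library. Spans and promoters came from RefSeq (all 10 Klf symbols matched, and 86.7% of tested genes had a span). The test was checked on simulated data, where the share of false calls was well above the nominal threshold. Far fewer genes changed in that simulation than were called here, so its share does not carry over directly. The adjusted p-values may still be too small. The Klf genes and the gene lists were chosen with earlier results of these data known. Beside the 10 Klf genes, the text names up to 3 genes a list that passed, by lowest adjusted p (where none passed, the 2 of highest mean CPM), and the 3 genes most like each of Klf2 and Klf4, of which 1 is not reported here. Genes near or at 0 are named to account for their list, and other names outside this rule were chosen after their values were seen.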

Additional observations from a re-analysis of the deposited data

How the results depend on the processing

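Calls of Klf2, Klf3, Klf4, Klf5, Klf10, Klf11, Klf13 and Klf16 kept their direction and side of the threshold with RLE factors, both other filters, DESeq2, limma-voom, no robust estimation, counts divided by 4 and the replicate block. The scaling changed most. With library totals 2 Klf genes were called lower, Klf5 was at 0.17 and did not pass, Klf9 was at -0.42 and passed, and 2298 genes were called higher, against 3814 with TMM. With mitochondrial scaling 4 Klf genes were called, 0 higher and 4 lower, and 396 genes were higher and 8872 lower over the whole table (3677 lower with TMM). No Klf gene was higher at an unadjusted p under 0.05 by edgeR. With mitochondrial scaling Klf3 (-1.54), Klf5 (-0.41), Klf6 (-0.57) and Klf9 (-0.999) passed as lower. Klf2 (-0.16), Klf4 (-0.22), Klf16 (-0.0126), Klf10 (0.0764), Klf11 (0.17) and Klf13 (0.0534) did not pass there. Among context genes Tbx3 was at -0.25, Crebbp at -0.37, Smad7 at -0.41, Tgfbr1 at -0.43, Thy1 at -0.52 and Col5a1 at -0.72 there, and Col5a1 was at -0.16 with library totals and ran from -0.23 (without 5 h replicate 1) to 0.37 (without 5 h replicate 2) with single libraries left out. Which scale is right cannot be told from these data, and the cause of these shifts was not tested. With the replicate number as a block Klf6 was at 0.28 and passed (adjusted p = 0.0454 by edgeR), and no other Klf call changed. Deviations of same-numbered libraries correlated at r = 0.05 across all genes tested, and the numbers were not taken as pairs. Noise at low counts also pulls such a value to 0, so it cannot show that pairing is absent. In Klf2, Klf3, Klf4, Klf6, Klf11, Klf13 and Klf16 the replicates differed in the same direction in both groups. Leaving out single libraries, which leaves 1 library in a group, Klf6 ranged from 0.13 to 0.46 and Klf9 from -0.19 to -0.09. With 2 libraries a group the precision of every value is limited.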
